A study of Mus musculus with 6 samples.

Results

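The glucocorticoid and corticotropin-releasing hormone (CRH) stress axis is described here by 9 genes. These are the receptors *Nr3c1* and *Nr3c2*, the enzyme gene *Hsd11b1*, the glucocorticoid-induced genes *Fkbp5*, *Sgk1* and *Tsc22d3*, the hormone gene *Crh*, its receptor gene *Crhr1* and its binding protein gene *Crhbp*. They were taken by gene symbol from the 52390 mouse genes listed. All 9 were listed and all 9 passed the filter on low counts.

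RNA-seq compared 3 *AP1AR-DT* OE mice with 3 control mice, all wild-type C57BL/6 males. At 8 weeks of age the mice were injected in the medial prefrontal cortex (mPFC) with a recombinant adeno-associated virus (rAAV). In *AP1AR-DT* OE mice it delivered *AP1AR-DT* (named *AC109347.1* in the labels), a human long noncoding RNA, driven by the neuronal promoter of human synapsin I. The control mice received an empty AAV vector, and the vector also carries EGFP under a CMV promoter. The labels name the tissue only as brain, whereas the study's text names mPFC in one place and cortical tissue in another. The study ran behavior tests on injected mice, and the sources used here do not say whether the sequenced mice were among them. The human *AP1AR-DT* is not listed among the mouse genes, so the groups were not checked by its level. The control libraries are numbered as the mice are. The *AP1AR-DT* OE libraries carry numbers other than those of the mice and are called A, B and C.

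Glucocorticoids are released by the adrenal gland when CRH neurons of the hypothalamus drive the pituitary. In brain cells they bind the glucocorticoid receptor (*Nr3c1*) and, with higher affinity, the mineralocorticoid receptor (*Nr3c2*), which move to the nucleus and act on genes such as *Fkbp5*, *Sgk1* and *Tsc22d3*. FKBP5 in turn lowers the hormone affinity of the glucocorticoid receptor, a short feedback loop. In cortex, CRH is made mainly by interneurons and acts locally on the CRH receptor 1 of nearby cells, while CRH-binding protein takes up the free peptide.

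Of the 9 genes, *Crhr1* rose and *Nr3c1* fell in *AP1AR-DT* OE mice at the study's thresholds, *P* under 0.05 and |log2FC| above 0.32, where log2FC is the log2 fold change of *AP1AR-DT* OE over control mice. The same thresholds called 12.2% of the 21844 genes tested, 5.1% upregulated and 7.15% downregulated. None of the 9 reached an adjusted *P* under 0.05 (edgeR quasi-likelihood F-test, Benjamini-Hochberg over all genes), a level that 0.0275% of all genes reached, and none did with DESeq2 or limma-voom. At *P* under 0.05 alone there were 3 of the 9, *Tsc22d3* being the third, against 15.1% of all genes. The median log2FC was 0.18 over the 9 genes and -0.01 over all genes tested.

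Levels are given as normalized CPM, which put each library's counts on the same total with edgeR's TMM factors. The levels of *Fkbp5*, *Tsc22d3* and *Crhr1* did not overlap between the groups, and all 3 were higher in *AP1AR-DT* OE mice. Groups that do not overlap were found for 22.4% of all genes tested, 10.4% with *AP1AR-DT* OE mice higher. The other 6 genes overlapped. With library totals in place of TMM factors, GC content correction or transcript length correction, 2 genes did not overlap in place of 3. In these settings 21.9%, 15.8% and 22.3% of all genes tested did not overlap.

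**Figure D1:**
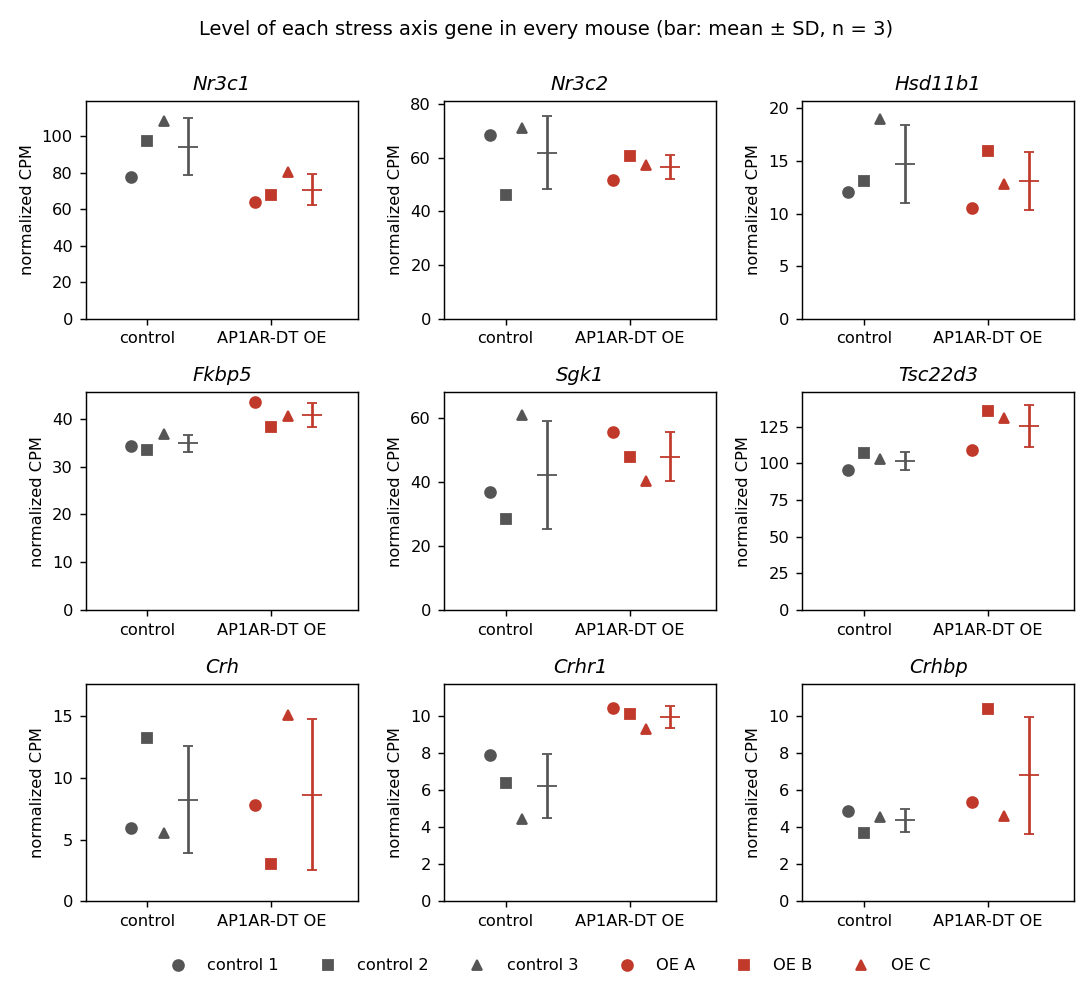
Normalized CPM of the 9 stress axis genes, 1 point per mouse, with the mean and SD of each group beside the points. *Fkbp5*, *Tsc22d3* and *Crhr1* are higher in all 3 *AP1AR-DT* OE mice than in any control mouse, while *Crh* varies as much within groups as between them.

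Depth was 42061721 to 49957663 counts per library in controls and 51374941 to 54668294 in *AP1AR-DT* OE mice. Every *AP1AR-DT* OE library was therefore deeper than every control library. Each of the 9 genes had at least 164 counts in every mouse. Marker lists were uneven among the mice of both groups. The summed level of 10 choroid plexus genes was 4080 normalized CPM in control 3 and between 54.0 and 80.4 in the other 5 mice. The summed level of 10 hypothalamus genes was 637 in control 2, 100 in control 3, 35.0 in control 1 and between 29.4 and 57.0 in *AP1AR-DT* OE mice. On the log2 scale, control 2 and control 3 lay 2.70 and 1.98 above the mean of 6 mice for that list. The summed level of 10 striatal neuron genes was 2710 in mouse A, 960 in mouse B and 1030 in mouse C, and 416 to 1540 in controls. The 10 cortical excitatory neuron markers were all detected, at summed levels of 1380 to 2430 in controls and 2020 to 3550 in *AP1AR-DT* OE mice. On the log2 scale, the mean deviation of the excitatory list was -0.46, -1.66 and 0.80 in controls 1, 2 and 3. It was 0.87, 1.31 and -0.87 in mice A, B and C. No marker of these lists was at 0 in all mice. Results for the stress axis genes are therefore also given without control 2 or control 3 where these changed a call. In bulk tissue, fewer cells of a type and less RNA per cell cannot be told apart.

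**Figure D2:**
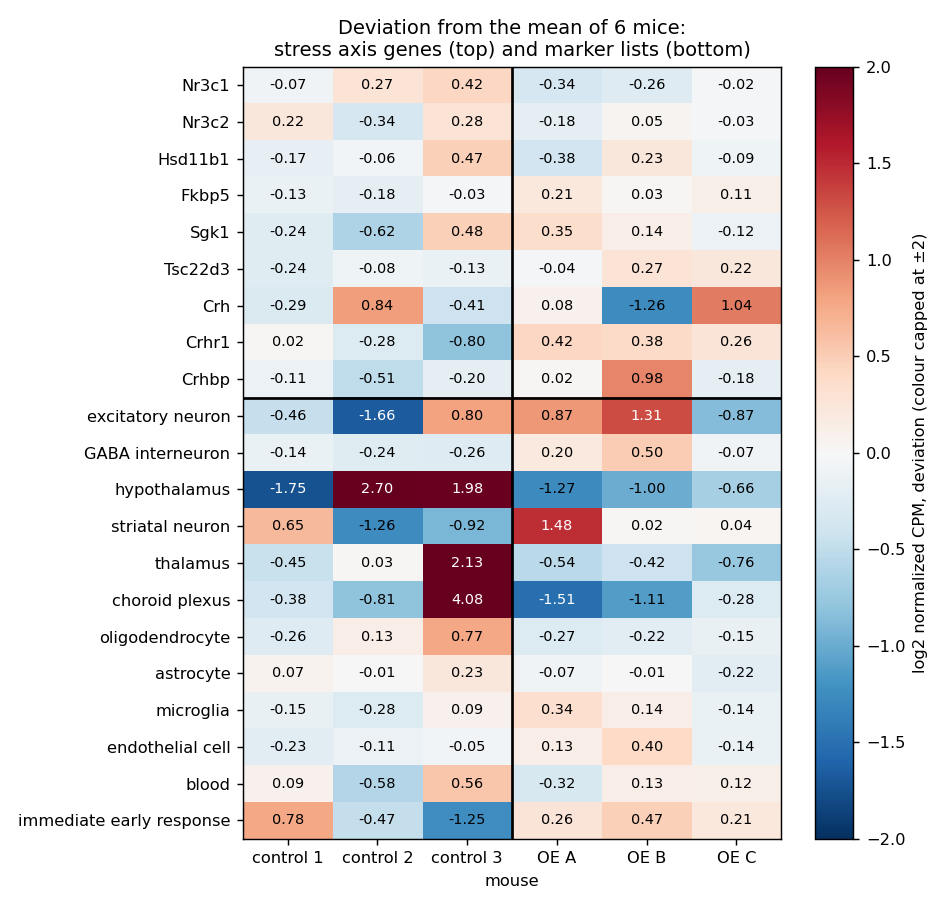
Deviation of each mouse from the mean of 6 mice on the log2 normalized CPM scale, for the 9 stress axis genes and for the mean of each marker list. Controls 2 and 3 stand apart in the hypothalamus list and control 3 in the thalamus, choroid plexus and oligodendrocyte lists, while the stress axis genes deviate by at most 1.26.

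*Nr3c1* encodes the glucocorticoid receptor and lies on chromosome 18. Its normalized CPM were 77.4, 97.3 and 108 in controls 1, 2 and 3, and 63.8, 67.6 and 80.1 in *AP1AR-DT* OE mice A, B and C. The groups overlapped, since control 1 lay below mouse C. The mean fell from 94.3 ± 15.7 to 70.5 ± 8.5 (SD, n = 3 per group), 25.3% lower. The log2FC was -0.42 with a standard error (SE) of 0.15, and *P* was under 0.05. The edgeR adjusted *P* = 0.296, with a range of 0.167 to 0.661 over the alternative fits. An exact two-sided permutation test gave *P* = 0.2, and 3 mice against 3 cannot give less than 0.1. *P* was no longer under 0.05 when control 2, control 3, mouse A or mouse B was left out, with log2FC of -0.39, -0.30, -0.35 and -0.39. In control 3, where *Nr3c1* was highest, the oligodendrocyte list stood at 11100 normalized CPM against 5260 to 6710 in the other mice, and the part of this in the result was not tested.

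Base composition moved with fold change across all genes. In deciles of genes ordered by the GC content of their longest transcript, the median log2FC rose from -0.30 in the lowest to 0.22 in the highest. *Nr3c1*, with 42.2% GC, lies in the second decile from the lowest, whose median was -0.21. After a correction for GC content in each library, its log2FC was -0.22 and it no longer passed (adjusted *P* = 0.631 by edgeR). The correction left 7.15% of all genes called.

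*Nr3c2* encodes the mineralocorticoid receptor. Its levels were 68.3, 46.2 and 70.9 normalized CPM in controls and 51.6, 60.7 and 57.4 in *AP1AR-DT* OE mice, which all lay within the control range. The log2FC was -0.13 (SE 0.173, adjusted *P* = 0.75 by edgeR). Without control 2, the lowest mouse, it was -0.29 with *P* under 0.05, still under the fold threshold. *Nr3c2* shares exon sequence with the antisense gene *Gm10649*, which had 80 to 177 counts per mouse against 2300 to 3541 for *Nr3c2*, and use of strand in counting was not stated for these libraries. Per kilobase of the longest transcript, the ratio of *Nr3c1* to *Nr3c2* was 1.46 ± 0.45 in control and 1.15 ± 0.13 in *AP1AR-DT* OE mice, with overlap.

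*Hsd11b1* encodes 11β-hydroxysteroid dehydrogenase type 1, which regenerates active glucocorticoid inside cells. It measured 12.1, 13.1 and 19.0 normalized CPM in controls and 10.5, 16.0 and 12.8 in *AP1AR-DT* OE mice. The highest single value was control 3 and the lowest was mouse A. The log2FC of -0.17 (SE 0.228, adjusted *P* = 0.745 by edgeR) changed sign without control 3 (0.066) and with GC correction (0.01), so no direction is given.

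Among the glucocorticoid-induced genes, *Tsc22d3* encodes GILZ, an anti-inflammatory leucine zipper protein. Its levels were 95.2, 107 and 103 normalized CPM in controls and 109, 136 and 131 in *AP1AR-DT* OE mice. Every *AP1AR-DT* OE mouse lay above every control, though mouse A exceeded control 2 by little, and the groups overlapped when library totals replaced TMM factors. The means were 102 ± 5.77 and 125 ± 14.2. The log2FC was 0.30 (SE 0.109) with *P* under 0.05 and adjusted *P* = 0.297 by edgeR, and the fold threshold was missed by little. The exact permutation *P* was 0.1, the smallest possible. With 48.3% GC its decile had a median log2FC of -0.02. After GC correction *Tsc22d3* passed both thresholds, the fold threshold by little, with a log2FC of 0.32 (adjusted *P* = 0.536 by edgeR). Leaving out 1 mouse at a time gave log2FC between 0.24 and 0.40, with *P* under 0.05 in 3 of 6 fits.

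*Fkbp5* encodes the co-chaperone of the glucocorticoid receptor. It measured 34.4, 33.4 and 36.8 normalized CPM in controls and 43.5, 38.3 and 40.6 in *AP1AR-DT* OE mice. All 3 *AP1AR-DT* OE mice were above the controls, with little spread in either group. The means were 34.8 ± 1.77 and 40.8 ± 2.59, the narrowest spread relative to the mean among controls of the 9 genes. The log2FC of 0.23 (SE 0.0981) narrowly missed *P* under 0.05 (adjusted *P* = 0.333 by edgeR), and the exact permutation *P* was 0.1. GC correction gave 0.15. *P* came under 0.05 with limma-voom (0.23), by little, with transcript length correction (0.24) and without control 3 (0.28), all under the fold threshold.

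*Sgk1* encodes a serum- and glucocorticoid-regulated kinase. Its levels were 36.9, 28.3 and 60.8 normalized CPM in controls and 55.4, 47.7 and 40.1 in *AP1AR-DT* OE mice. The *AP1AR-DT* OE mice lay between control 1 and control 3. The log2FC was 0.18 (SE 0.278, adjusted *P* = 0.778 by edgeR). It turned to -0.03 without control 2 and grew to 0.56 with *P* under 0.05 without control 3, the mouse with the high choroid plexus and oligodendrocyte lists. Without control 3, the genes past the thresholds were *Sgk1*, *Tsc22d3* and *Crhr1*, and without control 2 they were *Tsc22d3* and *Crhr1*.

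**Figure D3:**
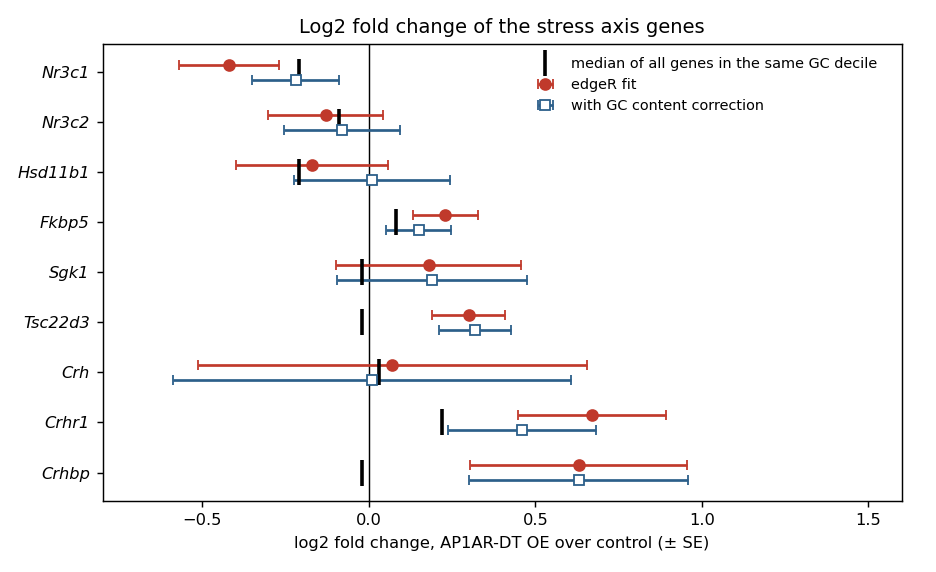
Log2 fold change of *AP1AR-DT* OE over control mice with its SE for each stress axis gene, from edgeR and with GC content correction, and the median of all genes in the same decile of GC content (vertical tick). *Nr3c1* moves from -0.42 to -0.22 and *Crhr1* from 0.67 to 0.46 with the correction, while *Tsc22d3* stays near 0.3.

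The ratio of the induced genes to the receptor was computed after the single values were seen and is a description only. Per kilobase, *Fkbp5* over *Nr3c1* was 0.741, 0.572 and 0.567 in controls and 1.14, 0.947 and 0.846 in *AP1AR-DT* OE mice. *Tsc22d3* over *Nr3c1* was 2.75, 2.45 and 2.12 in controls and 3.83, 4.51 and 3.65 in *AP1AR-DT* OE mice. Neither of these ratios overlapped between the groups. Each divides a gene already seen to be higher without overlap by *Nr3c1*, already seen to be lower, so this adds no separate support. The median log2FC of the GC decile was -0.21 for *Nr3c1*, 0.08 for *Fkbp5* and -0.02 for *Tsc22d3*. The part of GC content in the ratios was not tested. *Sgk1* over *Nr3c1* did overlap, at 0.992, 0.605 and 1.17 in controls and 1.81, 1.47 and 1.04 in *AP1AR-DT* OE mice.

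Promoters of the induced genes were read for the letters that the glucocorticoid receptor is known to bind. RefSeq starts on GRCm38.p6 were given for 7 of the 9 genes, at 14 starts, and the 250 bases before each were searched on both strands. The palindromic glucocorticoid response element (GRE), AGAACA followed after 3 bases by TGTTCT, was found before 3 of 32817 starts of all genes (0.00914%), and 1 of these belonged to *Sgk1*. Its half-site TGTTCT, which is part of the full element, was found in 16.1% of all windows and in 4 of the 14, of which 3 belonged to *Sgk1* and 1 to *Tsc22d3*. The CRE TGACGTCA, bound by the cAMP-responsive factor CREB, was in 1.55% of all windows and in 0 of the 14. The CRE half-site TGACG was in 17.7% of all windows and in 3 of the 14, of *Crhbp*, *Sgk1* and *Tsc22d3*. All 4 windows with the GRE or its half-site are shown, since 2 of the 3 induced genes hold them. Capitals mark the GRE and its half-sites, written AGAACA where they lie on the other strand. The *Sgk1* window with the GRE is chr10:21993640-21993889 on the plus strand, with the element 189 to 175 bases before the start. Other *Sgk1* starts have a half-site in chr10:21881934-21882183 and, 13 to 8 bases before the start, in chr10:21991973-21992222, both windows on the plus strand. The *Tsc22d3* half-site lies in chrX:140600660-140600772 on the minus strand, the stretch of that window that is not annotated as exon. A match is a description of letters, not of binding.
Sgk1 GRE: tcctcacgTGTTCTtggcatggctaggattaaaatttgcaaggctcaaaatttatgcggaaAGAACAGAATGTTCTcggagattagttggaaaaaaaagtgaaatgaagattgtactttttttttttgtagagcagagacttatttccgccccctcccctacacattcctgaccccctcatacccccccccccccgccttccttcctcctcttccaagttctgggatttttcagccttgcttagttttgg
Sgk1 half-site, chr10:21881934-21882183: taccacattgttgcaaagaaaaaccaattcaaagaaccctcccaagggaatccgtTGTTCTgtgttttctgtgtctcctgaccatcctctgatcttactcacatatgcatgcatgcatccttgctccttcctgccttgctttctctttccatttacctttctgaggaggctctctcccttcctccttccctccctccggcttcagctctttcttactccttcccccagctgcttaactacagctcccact
Sgk1 half-site, chr10:21991973-21992222: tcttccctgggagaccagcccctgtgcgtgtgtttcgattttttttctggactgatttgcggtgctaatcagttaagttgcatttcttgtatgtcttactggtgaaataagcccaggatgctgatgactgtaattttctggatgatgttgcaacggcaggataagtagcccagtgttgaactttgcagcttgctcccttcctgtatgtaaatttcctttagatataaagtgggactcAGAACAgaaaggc
Tsc22d3 half-site: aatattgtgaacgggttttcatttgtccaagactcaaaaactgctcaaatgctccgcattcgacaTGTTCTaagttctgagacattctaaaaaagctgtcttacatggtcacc

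*Crhr1*, at chr11:104132855-104175523 on the plus strand of GRCm38, encodes CRH receptor 1, the G protein-coupled receptor for CRH. It measured 7.87, 6.37 and 4.44 normalized CPM in controls and 10.4, 10.1 and 9.26 in *AP1AR-DT* OE mice. The *AP1AR-DT* OE mice lay close together and above all controls, among which control 3 was lowest. The mean rose from 6.23 ± 1.72 to 9.91 ± 0.581 (SD, n = 3 per group), a fold of 1.59. The log2FC was 0.67 (SE 0.221) with *P* under 0.05, and the exact permutation *P* was 0.1. The edgeR adjusted *P* = 0.295, with a range of 0.121 to 0.661 over the alternative fits. *Crhr1* stayed past the thresholds when any 1 mouse but mouse A was left out, with log2FC between 0.49 and 0.88. The lowest of these, 0.49, was without control 3, and without mouse A it was 0.64. *Crhr1* has 58.2% GC and lies in the highest decile, whose median log2FC was 0.22. With GC correction the log2FC was 0.46 and *Crhr1* no longer passed (adjusted *P* = 0.575 by edgeR). Control 3 also had the lowest summed level of 10 GABA interneuron genes, 1200 normalized CPM against 1780 to 2220 in the other 5 mice. By mean log2 deviation of that list, control 3 was close to control 2, at -0.26 and -0.24. The part of this list in the result was not tested.

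*Crh*, at chr3:19693401-19695396 on the minus strand, encodes the CRH peptide itself. Its counts were 243, 655 and 276 in controls and 412, 164 and 792 in *AP1AR-DT* OE mice. In normalized CPM these were 5.97, 13.2 and 5.53 against 7.77, 3.04 and 15.1. The highest and the lowest mouse were both *AP1AR-DT* OE mice, C and B. The range was 2.38-fold among controls and 4.96-fold among *AP1AR-DT* OE mice, the widest of the 9 genes in both groups. The means were 8.22 ± 4.28 and 8.63 ± 6.07, with a log2FC of 0.07 (SE 0.584, adjusted *P* = 0.965 by edgeR). Leaving out 1 mouse at a time gave values from -0.59 to 0.59, and no difference in either direction was detectable at this spread. The high mice, control 2 and mouse C, had the lowest excitatory neuron sums, 1380 and 2020 normalized CPM. Control 2 also had the high hypothalamus list, while mouse C was at 57.0 for that list. The part of these in the spread of *Crh* was not tested.

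*Crhbp*, at chr13:95431371-95444924 on the minus strand, encodes the CRH-binding protein. It measured 4.89, 3.69 and 4.56 normalized CPM in controls and 5.35, 10.4 and 4.63 in *AP1AR-DT* OE mice. Mouse B alone stood high, and mouse C lay within the controls. The log2FC was 0.63 (SE 0.326, adjusted *P* = 0.394 by edgeR), close in size to that of *Crhr1*, but *P* was not under 0.05. It was 0.19 without mouse B and 0.86, past the thresholds, without mouse C. Mouse B also had the highest excitatory neuron sum, 3550 normalized CPM. Its mean deviations on the GABA interneuron and endothelial cell lists, 0.50 and 0.40, were the highest of the 6 mice too. By summed level of the GABA interneuron list, mouse B, at 2160 normalized CPM, was below mouse C, at 2220. The part of these lists in the result was not tested. In mouse B a high *Crhbp* level went with the lowest *Crh* level. The ratio of *Crh* to *Crhbp* per kilobase was 0.395 in that mouse and between 1.63 and 4.80 in the others.

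Per kilobase of the longest transcript, *Tsc22d3* had the highest level, a median of 37.5 normalized CPM per kb over 6 mice, and did not overlap with the next gene. It was followed by *Sgk1* (14.2), *Nr3c1* (12.2), *Nr3c2* (9.99), *Fkbp5* (9.74), *Hsd11b1* (6.56), *Crh* (5.20), *Crhr1* (3.48) and *Crhbp* (2.68). Each of these overlapped with its neighbour in the order. With the length of all exons together in place of the longest transcript, *Tsc22d3* stayed first and *Crhbp* last, and *Sgk1* moved from rank 2 to rank 4. Both corticosteroid receptors stood above the CRH genes in median level.

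**Figure D4:**
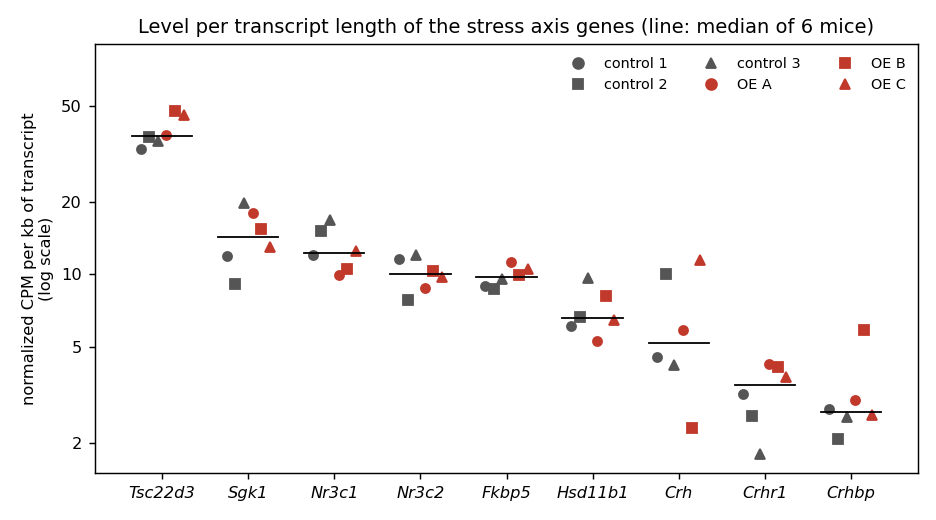
Normalized CPM per kilobase of the longest transcript on a log axis for the 9 stress axis genes, ordered by median, 1 point per mouse. *Tsc22d3*, at a median of 37.5, lies apart from the rest, and the 8 other genes overlap with their neighbours.

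The genes whose levels were most like a stress axis gene were found by Pearson's r of log2 normalized CPM over the 6 mice, among 14019 genes with a mean log2 CPM above 2. *Nr3c1* was most like *Plch1* (r = 0.998), *Zfp267* (0.9975) and *Eif2a* (0.9954). *Fkbp5* was most like *Cep85* (0.9882), *Tceal6* (0.9789) and *Dpp7* (0.9777), and *Crh* most like *Gm9523* (0.9902), *Sec24a* (0.9823) and *Eid2b* (0.975). The mice differ in depth, base composition and marker lists, which all genes share, and these values are descriptions.

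The rest of the pathway was read from 4 lists with 75 genes, of which 64 were tested. There were 5 upregulated and 2 downregulated genes, 10.9% against 12.2% of all genes. Without control 2 there were 4 past the thresholds in place of 7, and without control 1 there were 13.

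In the list of other glucocorticoid-induced genes, 5 of 24 tested genes rose against 5.1% of all genes, 0 fell against 7.15%, and the median log2FC was 0.20. This median is without GC correction and was not computed with it. *Per1*, a clock gene that glucocorticoids induce, went from 67.8 ± 18.0 to 91.7 ± 5.24 normalized CPM (log2FC 0.44, adjusted *P* = 0.327 by edgeR). *Zbtb16*, a zinc finger repressor, went from 10.5 ± 1.12 to 15.0 ± 1.22 (log2FC 0.51, adjusted *P* = 0.295). *Cdkn1a*, the cell cycle inhibitor p21, had a log2FC of 1.43 (adjusted *P* = 0.295 by edgeR, 0.0441 by DESeq2 and 0.3 by limma-voom), with mouse A at 17.1 normalized CPM and mice B and C at 5.79 and 6.61. *Hif3a*, a hypoxia-inducible factor, had a log2FC of 0.69 (adjusted *P* = 0.309), and *Mertk*, a phagocytic receptor tyrosine kinase, 0.32 (adjusted *P* = 0.322). The mean deviation of 10 immediate early genes from the mean of 6 mice was 0.78, -0.47 and -1.25 in controls and 0.26, 0.47 and 0.21 in *AP1AR-DT* OE mice. *Per1* was at 87.9, 62.2 and 53.3 normalized CPM in controls 1, 2 and 3, the same ranking of these mice. Of 10 microglia markers 4 rose, against 5.1% of all genes. Their summed levels were 344 to 416 normalized CPM in controls and 510, 427 and 363 in mice A, B and C, so mouse C lay within the controls. The part of these lists in the results for *Per1* and *Mertk* was not tested. In the list, 6 of 24 tested genes were higher in *AP1AR-DT* OE mice without overlap, against 10.4% of all genes, and 0 were lower. For all 5 past the thresholds the groups did not overlap, though for *Per1* control 1 and mouse C were both at 87.9 normalized CPM after rounding. These 5 were picked by *P* and fold in the same mice, so this adds no separate support. After GC correction *Per1* (log2FC 0.20) and *Hif3a* (0.61) no longer passed, and the other 3 kept *P* under 0.05. Of the genes not past the thresholds, the correction moved *Cebpb* from a log2FC of 0.20 to -0.21 and *Tgm2* from 0.38 to 0.18. *Pdk4* went the other way, from 0.17 to 0.29. When 1 mouse was left out, *Zbtb16* passed in all 6 fits, and *Cdkn1a* missed without control 2 (log2FC 1.2) or mouse A (0.77). *Hif3a* missed without control 1, control 3 or mouse C, and *Per1* and *Mertk* missed in 5 of 6 fits. *Ddit4*, an inhibitor of mTOR signaling, did not pass, at 53.7 ± 0.792 and 53.2 ± 0.588 normalized CPM in control and *AP1AR-DT* OE mice. With GC correction the log2FC of *Ddit4* was -0.22 with *P* under 0.05, under the fold threshold. *Klf9*, a zinc finger factor, did not pass either, at 158 ± 42.7 and 134 ± 7.03.

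Among 22 chaperones and coregulators of the receptors, 1 fell and 0 rose, 4.55% against 12.2% of all genes, and the median log2FC was -0.10. *Hsp90aa1*, the inducible HSP90 that holds the glucocorticoid receptor ready for hormone, went from 256 ± 35.5 to 166 ± 16.4 normalized CPM. Its levels were 221, 254 and 292 in controls and 153, 161 and 185 in *AP1AR-DT* OE mice, without overlap. The log2FC was -0.62 (adjusted *P* = 0.295 by edgeR), and -0.46 after GC correction, still past the thresholds. The adjusted *P* differed by tool, with 0.0107 by DESeq2 and 0.274 by limma-voom. Its constitutive relative *Hsp90ab1* had a log2FC of -0.12 and did not pass (adjusted *P* = 0.497). Its groups did not overlap either, at 789, 736 and 769 normalized CPM in controls and 706, 716 and 684 in *AP1AR-DT* OE mice. After GC correction its log2FC was -0.19 with *P* under 0.05, under the fold threshold. Of the 22 genes, 7 did not overlap, 5 lower and 2 higher, against 22.4% of all genes.

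Among 11 tested genes of the CRH family and pituitary axis, 1 fell and 0 rose, 9.09% against 12.2% of all genes. The median log2FC of this list was -0.39. *Adcyap1*, *Pomc*, *Ucn3* and *Pcsk1* were highest in control 2, at 29.5, 11.8, 3.59 and 31.5 normalized CPM. *Nr4a1* and *Avpr1a* were highest in control 1, at 72.9 and 11.1. The part of single control mice in this median was not tested. The gene that fell was *Avp*, which encodes vasopressin and had 7, 9187 and 756 counts in controls against 17, 47 and 21 in *AP1AR-DT* OE mice. The groups overlapped, since control 1 had the lowest count, and the log2FC of -6.96 (adjusted *P* = 0.295) rested on controls 2 and 3, the mice with the high hypothalamus list, of which *Avp* is itself a member. With DESeq2 the adjusted *P* = 0.0192, and with limma-voom *Avp* did not pass (log2FC -4.28, adjusted *P* = 0.675). Without control 2 the log2FC was -3.84. In the list of corticosteroid metabolism and transport, 0 of 7 tested genes passed, and the most expressed were *Srd5a1* (log2FC -0.14, adjusted *P* = 0.705) and *Star* (-0.04, adjusted *P* = 0.936). Of the 7, 1 did not overlap between the groups, against 22.4% of all genes. It was the steroid synthesis gene *Cyp11a1*, with 29, 6 and 42 counts in controls and 53, 75 and 54 in *AP1AR-DT* OE mice. Its log2FC was 1.03 (adjusted *P* = 0.471 by edgeR). The steroid synthesis genes *Cyp11b1*, *Cyp11b2* and *Cyp21a1* had 0 counts in all 6 mice.

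**Figure D5:**
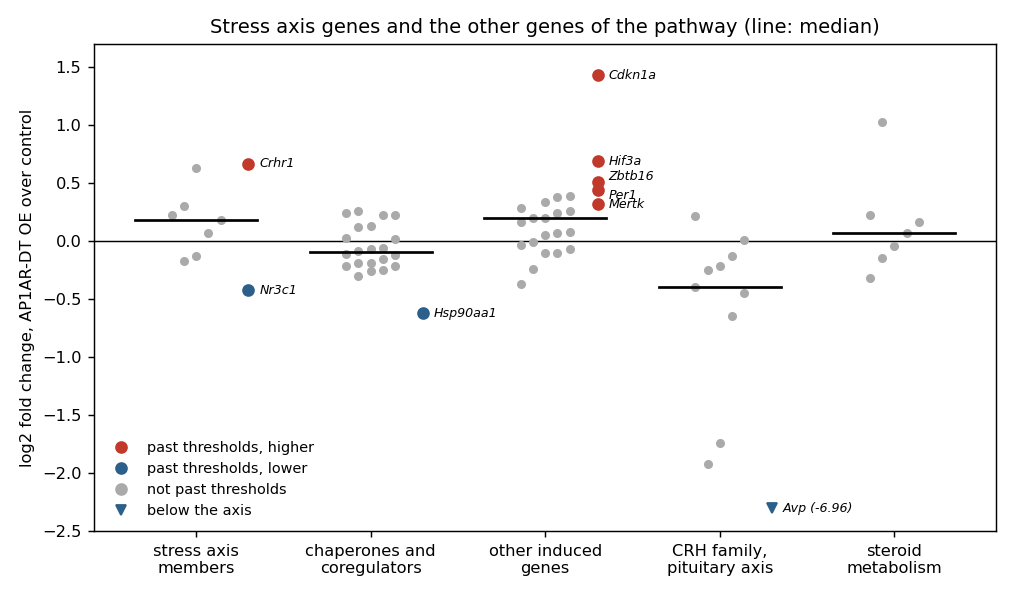
Log2 fold change of *AP1AR-DT* OE over control mice for the tested genes of the stress axis and of the 4 other pathway lists, 1 point per gene, with the list median as a line. Genes past the thresholds are coloured and named, 5 of them in the list of other induced genes, and *Avp* at -6.96 is drawn at the lower edge.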

How the data were processed

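RNA-seq of 3 control and 3 *AP1AR-DT* OE mice was analysed. The authors mapped reads to GRCm38 with Bowtie2, which does not split reads at introns, and derived whole-number counts per gene from StringTie coverage with GENCODE genes. These counts were deposited without normalization. The submitters' processing notes instead name mm9, TopHat2 2.0.4, HTSeq, SAMtools, Cuffdiff and edgeR 2.6.12. The deposited baseMean, log2 fold change, standard error, statistic and *P*-values are from the authors' DESeq2 fit and were not used.

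Counts were tested in R 4.3.3 with edgeR 4.0.16 (filterByExpr, TMM, quasi-likelihood F-test, two-sided, Benjamini-Hochberg), all 6 mice in one model without covariates. *P*-values measure the spread among these mice. Libraries held 42061721 to 54668294 counts, and the common biological coefficient of variation was 0.313. No libraries were alike within sampling noise (lowest chi-square per gene 47.1). The alternatives were DESeq2 1.42.0 and its size factors, library totals, limma-voom (limma 3.58.1), no filter, at least 10 counts in every library, GC content or transcript length as offsets (splines with 5 degrees of freedom), and leaving out each mouse.

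The stress axis genes and lists were chosen with earlier results of these data known. Named genes were the 9, every gene of 4 pathway lists past the thresholds or otherwise its 2 most expressed, and the 3 genes most like *Nr3c1*, *Fkbp5* and *Crh*. *Ddit4*, *Klf9*, *Cebpb*, *Tgm2*, *Pdk4*, *Hsp90ab1*, *Adcyap1*, *Pomc*, *Ucn3*, *Pcsk1*, *Nr4a1*, *Avpr1a* and the Cyp genes were named after their values were seen. Coordinates are from GENCODE vM21 on GRCm38, in which 52081 of 52390 genes were found. Of 100-base stretches of the longest transcripts, those of 8 genes were in no other gene, and 0.963% of those of *Nr3c2* were shared with 1 gene.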

Additional observations from a re-analysis of the deposited data

How the results depend on the processing

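No paired analysis was possible because the groups share only the replicate number 3 and the *AP1AR-DT* OE libraries do not carry the numbers of the mice. GC content correction called 1562 genes in place of 2675, and 1 stress axis gene in place of 2, *Tsc22d3* rather than *Crhr1* and *Nr3c1*. With it, *Tsc22d3* passed the fold threshold by little, at 0.32. *Crhr1*, at 0.46, had the larger log2FC but not *P* under 0.05. Stress axis genes without overlap went from 3 to 2 with GC content correction, transcript length correction or library totals. Leaving out 1 mouse at a time gave 1430 to 3508 genes in all, 1 to 3 stress axis genes past the thresholds, 3 to 5 without overlap (against 27.6% to 39.8% of all genes in these fits), and 4 to 13 of the other pathway genes. The lowest counts of stress axis genes came without mouse A or mouse B. Directions that changed were those of *Crh* with limma-voom (-0.12) and without single mice (-0.59 to 0.59), of *Hsd11b1* with GC correction (0.011) and without single mice (-0.34 to 0.066, the highest without control 3), of *Sgk1* without single mice (-0.026, without control 2, to 0.56), and of *Star* with GC correction (0.038) and without single mice (-0.13 to 0.079). The cause was not tested. Of the other fits of the 9 genes, 66 of 72 with another tool, scaling, filter or correction and 37 of 54 with a mouse left out kept the direction and the side of the *P* threshold. With 3 mice per group and edgeR adjusted *P* of 0.295 or more for all 9 genes, the calls rest on unadjusted *P*.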
